A study of Mus musculus with 2 samples.

Results

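Alveolar fibroblasts are the mesenchymal cells that lie in the walls of the alveoli, and 1192 of them were found among 45824 kept cell barcodes of 2 single-cell RNA sequencing libraries of mouse lung, 636 in the *Pclaf* WT library and 556 in the *Pclaf* KO library. They were chosen by the genes detected in each cell. A barcode was kept when over 200 but fewer than 5000 genes were detected in it and mitochondrial genes gave under 20% of its UMIs (unique molecular identifiers, 1 per captured RNA molecule). A kept cell was taken when it held UMIs of at least 2 of the fibrillar collagen genes *Col1a1*, *Col1a2* and *Col3a1* and of at least 2 of the alveolar markers *Npnt*, *Ces1d*, *Tcf21*, *Inmt* and *Col13a1*. It also had to hold fewer than 2 of the adventitial markers *Pi16*, *Col14a1*, *Dpt*, *Clec3b* and *Serpinf1*, and no UMI of *Ptprc*, *Pecam1*, *Epcam*, *Msln*, *Cox4i2* and *Myh11*, which mark leukocytes, endothelium, epithelium, mesothelium, pericytes and smooth muscle. The levels of these 19 genes made the choice, so they are given as a description and support nothing.

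Both groups were 8- to 10-week-old male mice that had received 1.35 U/kg of bleomycin, a drug that injures the lung epithelium and is followed by fibrosis, 1 week before their lungs were taken, and no uninjured lung is among the samples used here. The *Pclaf* KO mice came from an existing knockout line, and neither the part of the gene removed nor the number of mice behind each library was given in the sources used here. *Pclaf* encodes a partner of PCNA, the sliding clamp of DNA replication. Each genotype is 1 library, with 16000 cells loaded in each, so the values of the libraries are set side by side with no test, and their intervals cover counting error only. A difference between the genotypes cannot be told apart from one between the libraries.

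The libraries differed in depth and in the cells they held. The WT library had 98171818 UMIs on 30669 barcodes, of which 30187 were kept, and the KO library had 111267567 UMIs on 17172 barcodes, of which 15637 were kept. Both have more barcodes than the 16000 cells stated as loaded, and in WT the kept ones exceed that number too, so these cannot all be separate loaded cells if the stated number holds. A cell is from here on a kept barcode, and shares of cells are shares of barcodes. The median kept cell held 2127 UMIs and 1162 genes in WT and 5957 UMIs and 2132 genes in KO. The labels describe the cells as epithelial, sorted without Cd31 and Cd45 and with Epcam, a gate that fibroblasts and endothelium lie outside of. All the same, cells that met rules for endothelium were 7087 of the kept WT cells (23.5%) and 401 of the KO cells (2.56%), and AT2 cells, the surfactant-making cells of the alveolus, were 551 (1.83%) and 6730 (43.0%). A total of 163 barcodes occurred in both libraries, 3 of the WT and 5 of the KO alveolar fibroblasts had such a barcode, and none was a member in both. *Xist*, the RNA that coats the inactive X chromosome of female cells, was at 394 counts per 1e+06 UMIs (CPM) in the WT and 501 CPM in the KO members, beside the Y-linked *Ddx3y* at 68.7 and 44.5 CPM, although the methods describe male mice.

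Lung fibroblasts fall into kinds by place. Alveolar fibroblasts sit next to the alveolar epithelium, make elastin, collagen and nephronectin, hold retinoids, and send Fgf and Wnt signals to AT2 cells, whereas adventitial fibroblasts lie in the cuffs around airways and large vessels and make a dense collagen and decorin matrix. After bleomycin, part of the fibroblasts take on a matrix-secreting, contractile form, for which *Acta2*, *Fn1*, *Tnc* and *Spp1* are among the usual marks.

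The rule passed 2.11% of the kept WT cells (1.95 to 2.28, exact binomial 95% interval) and 3.56% of the kept KO cells (3.27 to 3.86). Among the 1818 WT and 2214 KO cells with 2 of the collagen genes and none of the 6 excluded genes, the order was the other way, 35.0% in WT (32.8 to 37.2) and 25.1% in KO (23.3 to 27.0). That order turned under some other settings. When every cell was first thinned to 1000 UMIs, which also left shallower cells out, the shares were 47.3% of 1522 WT and 51.7% of 2032 KO cells. When *Dpt* and *Clec3b* were left out of the adventitial step they were 71.5% and 82.9%. For the members of states 1 and 3 alone, clusters described last, they were 15.2% and 19.7%. A member had a median of 1672 UMIs and 903 genes in WT and of 3475.5 UMIs and 1649 genes in KO, and 200 of the WT but 42 of the KO members had fewer than 1000 UMIs. The mitochondrial share was 5.46% and 4.46% of UMIs (medians).

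The steps of the rule passed unlike shares of the cells in the libraries. In WT, 3392 kept cells had 2 collagen genes, 2167 of them also 2 alveolar markers, and 1059 were left after the adventitial step. In KO these numbers were 2948, 2413 and 703. The cells left after the adventitial step had fewer UMIs in both libraries, with medians of 2601 after 3963 in WT and of 3891 after 5611 in KO. The last step removed 243 WT cells with *Pecam1* and 150 with *Ptprc*, whereas in KO the most frequent reason was *Epcam*, in 93 cells.

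The cells just inside and just outside the rule were as follows. In members with exactly 2 alveolar markers, *Limch1*, an alveolar gene that the rule did not use, was at 1006 CPM in WT and 1370 in KO, and in cells with 1 marker, which were outside, it was at 619 and 613 CPM. At the other edge, 463 WT and 771 KO cells missed membership through a second adventitial marker. In these *Limch1* was at 2470 and 2595 CPM, against 2114 and 2607 CPM in the members with 1 adventitial marker, and *Pi16*, a marker of adventitial progenitors, was at 1.02 and 0.481 CPM against 3.55 and 1.17 CPM. *Dcn* was higher in the WT cells outside, at 191 against 94.1 CPM, but not in the KO ones, at 201 against 256 CPM, and *Sftpc* was at 1415 against 397 CPM in WT and at 5493 against 12657 CPM in KO. Of the 5 adventitial markers, the members themselves often held *Dpt*, in 37.7% of the WT and 37.2% of the KO members, and *Clec3b*, in 23.7% and 35.4%.

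Among the genes that made the choice, *Npnt*, which encodes nephronectin, was at 2224 CPM in WT and 2073 in KO, in 91.8% and 95.3% of the members. *Inmt*, an indolethylamine methyltransferase that is abundant in lung, was at 2958 and 3710 CPM. The carboxylesterase gene *Ces1d* was at 676 and 571 CPM, the transmembrane collagen gene *Col13a1* at 351 and 357 CPM, and *Tcf21*, a transcription factor of lung mesenchyme, at 293 and 272 CPM. In adventitial fibroblasts, which were 157 WT and 115 KO cells chosen by the mirror image of the rule, *Npnt* was at 120 and 73.0 CPM and *Col13a1* at 5.00 and 13.5 CPM. The fibrillar collagens stood the other way, with *Col1a1* at 1482 and 1006 CPM in the members and at 4177 and 3669 CPM in adventitial fibroblasts. *Pi16* had 4 and 2 UMIs in all members and *Serpinf1* had 3 and 4.

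**Figure D1:**
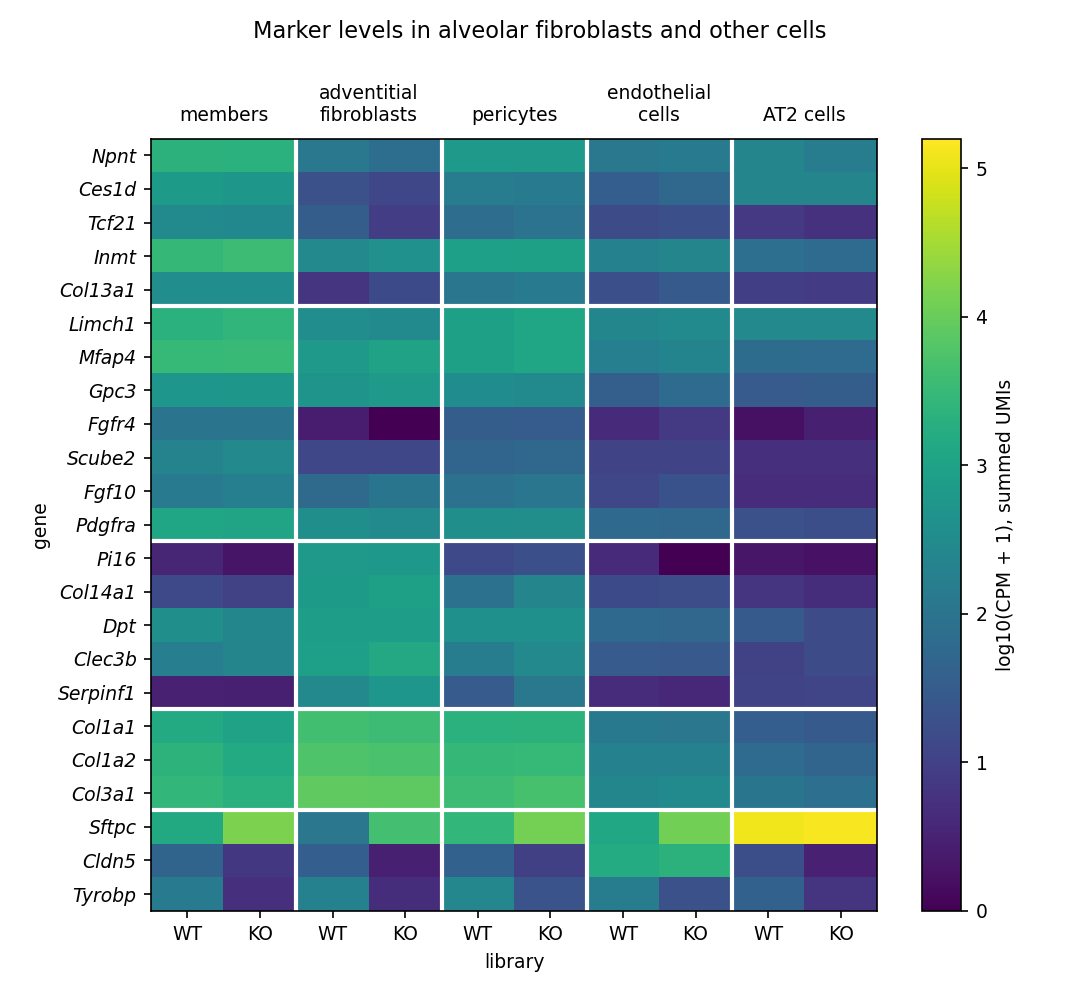
Levels of 23 genes in alveolar fibroblasts (members) and 4 other kinds of cells, with a pair of columns per kind, WT then KO, and color giving log10 of CPM plus 1. The upper 5 rows are the alveolar markers of the rule and the next 7 are alveolar genes outside it, most of which are brightest in the members, the 5 adventitial markers and 3 collagens are brightest in adventitial fibroblasts, and *Sftpc* is brighter in every KO column than in the WT column beside it.

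The label was checked on 30 alveolar fibroblast genes outside the rule. Their summed level was 25756 CPM in the WT and 27616 CPM in the KO members, against 7191 and 8237 CPM in adventitial fibroblasts. Of these genes, 25 in WT and 23 in KO were at least 2-fold higher in the members, where 7.4% of all 6620 genes compared were so in WT and 9.77% in KO. The rule itself set these cells apart, so these counts only describe the label. *Scube2*, a secreted factor that releases Hedgehog ligands, was at 209 CPM in the WT members and 11.7 CPM in WT adventitial fibroblasts, and at 275 and 11.5 CPM in KO. *Itga8*, the integrin chain that binds nephronectin, was at 1005 against 85 CPM in WT and at 1079 against 94.1 CPM in KO. *Fgfr4*, a receptor for fibroblast growth factors, had 151 UMIs in the WT members and 1 in WT adventitial fibroblasts, and 214 and 0 in KO. *Adra1a* and *Adrb3*, adrenergic receptor genes, had the same form: *Adra1a* had 370 UMIs against 12 in WT and 614 against 8 in KO, and *Adrb3* had 67 UMIs against 1 in WT and 103 against 0 in KO.

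Further genes among the 15 furthest above adventitial fibroblasts were *Upk1b*, a uroplakin better known from bladder and mesothelium, at 155 against 6.67 CPM in WT and 142 against 7.68 CPM in KO, *Slc7a10*, an amino acid transporter, at 115 against 3.33 CPM and 124 against 7.68 CPM, and *Cdo1*, the enzyme that oxidizes cysteine, at 529 against 43.4 CPM and 499 against 46.1 CPM. Of the mesothelial markers, *Upk1b* gave 155 of a summed 174.3 CPM in WT and 142 of 168.2 CPM in KO, and *Wt1* and *Lrrn4* had 0 UMIs in both. Also among the 15 were *Acoxl* and *Lyz1*, genes of AT2 cells, with 4 and 9 UMIs in the WT members and 115 and 310 in the KO members. Adventitial fibroblasts led in 4.64% of the genes in WT and in 5.39% in KO. Lumican, the small proteoglycan encoded by *Lum*, was at 542 CPM in WT and 678 in KO adventitial fibroblasts and at 4.54 and 5.62 CPM in the members, and asporin, encoded by *Aspn*, at 348 and 778 CPM against 6.48 and 16.9 CPM. The noncoding RNA *Meg3* had 106 and 113 UMIs in adventitial fibroblasts and 0 in all members of both libraries, where 3 UMIs are the limit that a count of 0 allows. The scavenger receptor gene *Scara5*, with 77 and 81 UMIs, and *Col8a1*, with 77 and 47, were likewise at 0.

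*Pclaf* (ENSMUSG00000040204), the gene knocked out, had 21 UMIs in the WT members (13.6 CPM) and 4 UMIs in the KO members (1.87 CPM). Its log2 ratio, given throughout as KO over WT, was -2.86 (-4.86 to -1.29, exact 95% interval for 2 Poisson counts). Over all settings the ratio lay between -3.08 and -1.24. *Pclaf* was found in 1.73% of the WT and 0.719% of the KO members. Whether these 3' tags lie in the removed part of the gene was not given, so the 4 UMIs neither meet nor go against the label. Cells with UMIs of at least 2 of 6 cycling genes were 7 of 636 in WT (1.10%, 0.44 to 2.25) and 3 of 556 in KO (0.54%, 0.11 to 1.57), and at 1000 UMIs per cell 3 of 436 and 1 of 514. These few cells, from 1 library per genotype, allow no statement on a difference. Among endothelial cells, 129 of 7087 in WT and 6 of 401 in KO met the same mark at full depth.

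For the comparison of the libraries, 5539 genes had at least 100 UMIs over both. The log2 ratio of KO over WT had a median of -0.06, 79 genes (1.43%) were at least 2-fold higher in the KO library and 79 (1.43%) at least 2-fold lower. The counts of lists below, for the members as selected, are to be read beside these shares of all genes. The 10 furthest above were *Lyz1*, *Acoxl*, *S100g*, *Hc*, *Sftpc*, *Car8*, *Lamp3*, *Sftpb*, *Sftpa1* and *Cxcl15*, with log2 ratios from 3.03 to 4.64, and most of them are known from AT2 cells. The 10 furthest below were *S100a8*, *Chil3*, *Tyrobp*, *Ccl6*, *Ctss*, *C1qb*, *Fcer1g*, *S100a9*, *Wfdc17* and *Srgn*, at -3.56 to -5.51, and are known from macrophages, neutrophils and other leukocytes. *Chil3* was at -0.54, within 2-fold, with the rule applied to cells thinned to 1000 UMIs. A gene was counted as the members' own when, in the library where it was higher in them, its level was at least 4-fold that in the collagen-negative cells, a choice that itself depends on the difference. By this measure 74 of the 79 higher and 66 of the 79 lower genes were not the members' own. Of the 677 own genes 5 were at least 2-fold higher in KO, namely *Tnfaip6*, *Dcn*, *Itgbl1*, *Igfbp6* and *Nat8f3*, and 13 lower, namely *Acta2*, *Saa3*, *Chl1*, *Kif26b*, *Fst*, *Csmd1*, *Ltbp2*, *Slc39a14*, *Sfrp1*, *C1qtnf6*, *Pdgfrb*, *Scube1* and *Pcdh7*, and their median log2 ratio was 0.01. When the level was taken as the mean of the libraries, 617 genes were the members' own, with the same 18 genes past 2-fold and a median of -0.03. Most of these calls ended under another setting: all 5 higher genes and 10 of the 13 lower ones were within 2-fold with the rule applied to cells thinned to 1000 UMIs, and 12 of the 13, with *Fst* excepted, were so under at least 1 setting. Some also sat in few cells, with 5 cells holding 83.3% of the *Chl1* and 89.7% of the *Csmd1* UMIs in the KO members.

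RNA of AT2 cells moved with the library. *Sftpc*, the gene of surfactant protein C, was at 1417 CPM in the WT and 15017 CPM in the KO members, in 32.1% and 98.9% of the cells. The libraries were about as far apart in endothelial cells, which do not make it, at 1290 CPM in WT and 12643 in KO, although in the WT members 5 cells held 79.4% of the *Sftpc* UMIs (31.2% in KO). WT members with 2 or 3 alveolar markers were at 2887 and 3122 CPM and those with 4 or 5 at 230 and 119 CPM, and in KO these values were 49193, 21677, 8754 and 4660 CPM. At 1000 UMIs per cell, a measure that few cells cannot carry, *Sftpc* was found in 18.1% and 82.5% of the members and in 16.1% and 85.6% of endothelial cells, with median depths of 2037 and 2464 UMIs for the latter. The AT2 markers summed to 3392 CPM in WT and 21978 in KO, and 14 of 15 were at least 2-fold higher in KO. The median member took 0.064% of its UMIs from AT2 markers in WT and 0.257% in KO, and 6 WT and 29 KO members took more than 5%. The airway markers summed to 3150 and 7703 CPM, most of it *Scgb1a1*, the club cell secretoglobin, at 2832 and 7340 CPM (log2 ratio 1.37, but -0.54 without the 10% of kept cells with the highest Scrublet doublet scores), against a sum of airway markers of 1667 and 10646 CPM in endothelial cells. These levels were uneven over the KO members. AT2 markers summed to 169882 CPM in the 29 KO members of state 5, a cluster described last, and to 2836 CPM in those of state 1. Airway markers summed to 13679 CPM in the KO members of state 1 and to 1241 CPM in those of state 3. The source of this RNA was not tested, so these genes are not read as expressed by the fibroblasts.

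RNA of leukocytes, endothelium and red cells went the other way. Of 8 macrophage, neutrophil and monocyte markers with enough UMIs, 7 were at least 2-fold lower in KO. *Tyrobp*, an adaptor of myeloid receptors, was at 135 CPM in WT and 4.22 in KO, whereas *Lyz2*, shared with AT2 cells, was at 1263 and 1790 CPM (0.50, but -0.32 by the mean of cells, -0.21 in members thinned to 1000 UMIs and -0.02 without the highest Scrublet scores) and made up most of the list's sum of 2243 and 1864 CPM. Endothelial markers summed to 628.7 and 164.5 CPM, with *Pecam1* at 0 by the rule and *Calcrl*, an adrenomedullin receptor chain, at 129 and 29.5 CPM. Erythroid genes summed to 296.8 and 116.7 CPM and lymphocyte markers to 94.6 and 4.69 CPM. Smooth muscle markers summed to 725.2 and 374.4 CPM, led by *Tagln*, with 1 of 5 at least 2-fold lower in KO, and pericyte markers to 309.8 and 159.3 CPM, with 1 of 3. The part of these RNAs in the differences below was not tested, and the level in endothelial or AT2 cells is given beside several genes that they also hold.

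**Figure D2:**
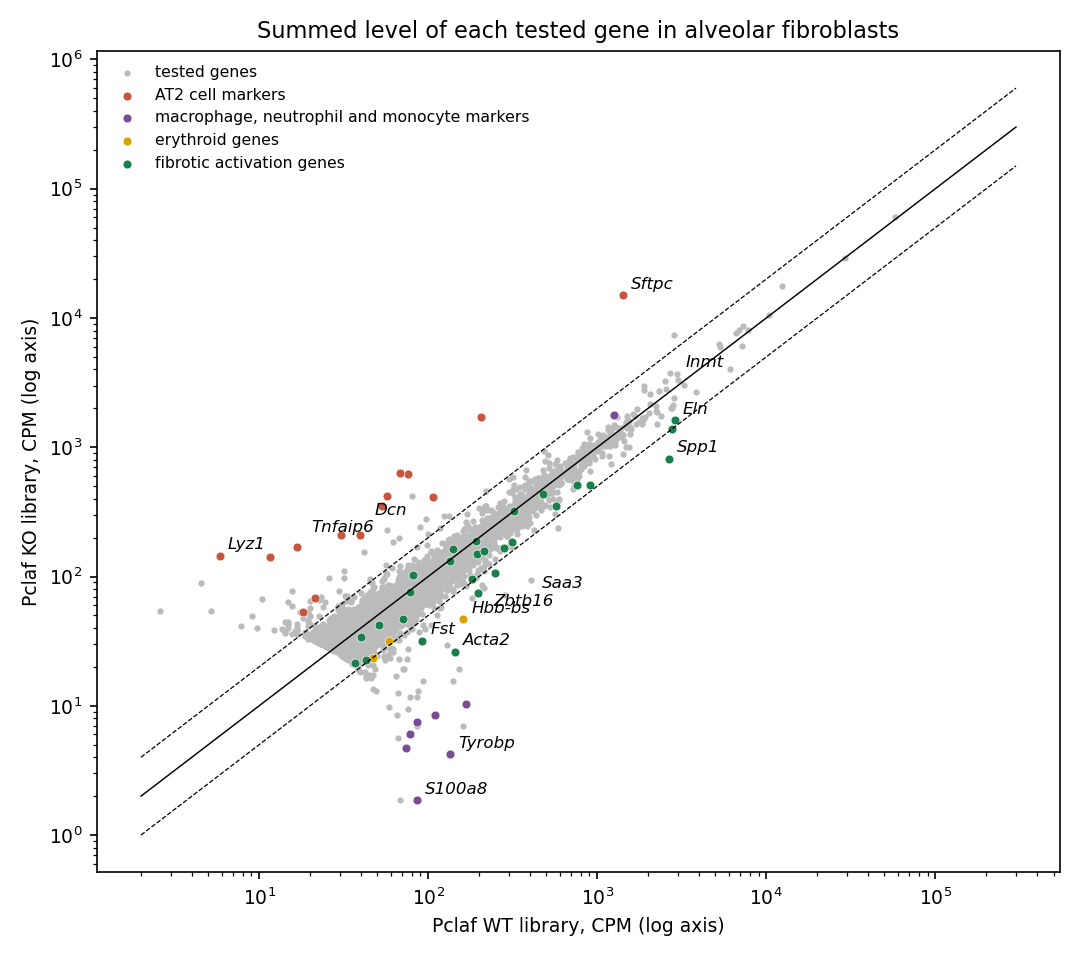
Summed level of the 5539 genes in alveolar fibroblasts, KO library on the y axis against WT library on the x axis, both in CPM on log axes, with 1 point per gene, a solid line at equal levels and dashed lines at 2-fold. AT2 markers (red) lie above the upper dashed line with *Lyz2* excepted, most leukocyte markers (purple) lie far below the lower one, and the fibrotic activation genes (green) lie mostly between the solid and the lower dashed line.

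The genes that mark alveolar fibroblasts differed little between the libraries. None of the 30 outside the rule was 2-fold apart, the median log2 ratio was 0.11, and 21 were above 0. *Limch1*, an actin-binding protein gene, was at 2060 CPM in WT and 2598 in KO (log2 ratio 0.34, 0.27 to 0.40). *Mfap4*, a microfibril protein gene, was at 3013 and 3284 CPM (0.12), and *Macf1*, which links actin to microtubules, at 5357 and 5957 CPM (0.15). *Wnt2*, a Wnt ligand of the alveolar niche, was the highest of them at 67.4 and 110 CPM (0.71, 0.37 to 1.06), followed by *Rarres2*, which encodes the chemoattractant chemerin, at 521 and 756 CPM (0.54). The lowest were *Spon1* at 970 and 817 CPM and *Vegfd*, a growth factor of lymphatic vessels, at 334 and 282 CPM (both -0.25). At 1000 UMIs per cell, *Limch1* was found in 77.5% of the WT and 90.1% of the KO members, against 14.9% of endothelial cells in both libraries. With the rule itself applied to cells thinned to 1000 UMIs, which gave 720 WT and 1051 KO members, *Limch1* came to 0.10 and *Wnt2* to 0.14.

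Niche ligands and their receptors were also close. Of 17 genes of FGF, PDGF, HGF, EGF and VEGF signals, 1 was at least 2-fold lower in KO and none higher, with a median of -0.03. *Pdgfra*, the PDGF receptor that marks these fibroblasts, was at 1208 CPM in WT and 1067 in KO, and *Angpt1*, which supports vessels, at 611 and 664 CPM. *Hgf*, a mitogen of epithelium, was at 109 and 140 CPM (0.36, 0.08 to 0.64), and the receptor gene *Fgfr2* at 75.8 and 122 CPM (0.69, 0.37 to 1.02), although *Fgfr2* was at 0.03 in the members of states 1 and 3, the clusters described last. *Fgf10* and *Fgf7*, ligands that act on epithelium through *Fgfr2*, were at 137 and 171 CPM and at 139 and 149 CPM. The low gene was *Pdgfrb*, which pericytes hold at a high level, at 47.3 and 20.6 CPM (-1.20, -1.77 to -0.64), and *Igf1* was next at 301 and 172 CPM (-0.81), but with the rule at 1000 UMIs they were at -0.46 and -0.09.

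In the Wnt, BMP, TGF-beta and Hedgehog lists most genes were within 2-fold. Their medians were -0.11, -0.01, -0.14 and -0.0035, with 1 gene at least 2-fold lower in each of the Wnt, BMP and TGF-beta lists. Of 13 Wnt genes, *Sfrp1*, a secreted Wnt antagonist, was at 250 CPM in WT and 107 in KO (-1.22, -1.47 to -0.98, but -0.69 with the rule at 1000 UMIs), and the ligand gene *Wnt5a* at 64.2 and 32.8 CPM (-0.97, but -0.089 with the rule at 1000 UMIs). Of 18 BMP genes, *Fst*, which encodes the activin antagonist follistatin, was at 92.0 and 31.9 CPM (-1.53, -1.97 to -1.10), and 63.4% of its WT and 83.8% of its KO UMIs lay in 5 cells. The related *Fstl1* was at 561 and 305 CPM (-0.88, but -0.26 with the rule at 1000 UMIs), whereas *Bmp5* and *Id3*, a BMP ligand and a BMP target, were at 345 and 352 CPM and at 377 and 397 CPM. Of 22 TGF-beta genes, the coreceptor *Eng* was at 66.8 and 23.0 CPM (-1.54, but -0.90 without *Dpt* and *Clec3b*), and in endothelial cells, which make it in quantity, at 904.5 and 727.9 CPM. *Tgfbr2*, the ligand-binding receptor, was at 730 and 504 CPM (-0.53), and *Pmepa1*, a feedback inhibitor, at 486 and 568 CPM (0.23). Of 12 Hedgehog and Notch genes none was 2-fold apart. *Hhip*, a decoy of Hedgehog ligands, was at 143 and 95.1 CPM (-0.58) and *Gas1*, a coreceptor, at 75.2 and 115 CPM (0.61).

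Collagen genes mostly had ratios below 0 as selected. Of the 12 collagen genes outside the rule that had enough UMIs 10 were below 0, where 58.0% of all 5539 genes were, with a median of -0.42, and 1 was at least 2-fold higher and none lower. *Col5a1*, a fibril-starting collagen, was at 216 CPM in WT and 132 in KO (-0.71, -0.95 to -0.48, but -0.12 in members thinned to 1000 UMIs), and *Col18a1* of the basement membrane at 130 and 82.5 CPM (-0.65). The network collagens *Col4a5* and *Col4a6* had ratios above 0, at 110 and 152 CPM (0.46) and at 14.9 and 44.5 CPM (1.58, 0.91 to 2.30, but 0.60 with the rule at 1000 UMIs). *Fn1*, the gene of fibronectin, was at 2754 and 1389 CPM (-0.99, -1.06 to -0.92) and *Eln*, of elastin, at 2865 and 1616 CPM (-0.83, -0.89 to -0.76). Of 30 genes of elastic fibres, basement membrane and proteoglycans outside the rule, 1 was at least 2-fold lower and 1 higher, with a median of -0.13. *Mgp*, of matrix Gla protein, an inhibitor of calcification, was level at 29022 and 29044 CPM, and *Bgn*, of biglycan, was at 2817 and 2126 CPM (-0.41). *Ltbp2*, a microfibril protein gene, was at 198 and 74.0 CPM (-1.42), whereas *Dcn*, of decorin, was at 89.4 and 241 CPM (1.43, 1.16 to 1.71), and with the rule at 1000 UMIs they were at -0.03 and 0.39. Of 28 genes of crosslinking and turnover 1 was 2-fold lower, the protease gene *Ctsk* at 42.8 and 16.4 CPM (-1.38), and the median was -0.32. With the rule at 1000 UMIs *Ctsk* was at -0.25 and no gene of this list was 2-fold lower, and without *Dpt* and *Clec3b* in the adventitial step *Ctsk* was at -0.21. *Mmp14*, a membrane metalloproteinase, was at 205 and 116 CPM (-0.82), the collagen chaperone gene *Serpinh1* at 773 and 618 CPM, and *Timp3*, a metalloproteinase inhibitor, at 888 and 1051 CPM (0.24).

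Fibrotic activation genes had a median ratio below 0 as selected. Of the 27 of 40 with enough UMIs, 5 were at least 2-fold lower and none higher, against 1.43% of all genes in either direction. Of the 27, 25 were below 0, where 58.0% of all genes were, and the median was -0.71. Their summed level was 14163 CPM in WT and 7835 in KO. *Acta2*, smooth muscle actin, had 222 UMIs in WT (144 CPM) and 56 in KO (26.2 CPM), a log2 ratio of -2.45 (-2.90 to -2.03), in 10.2% and 6.5% of the members, and 44.6% and 41.1% of these UMIs lay in 5 cells. *Spp1*, of osteopontin, had 4095 and 1746 UMIs (2654 and 818 CPM, -1.70, but -5.06 without the highest Scrublet scores), of which 5 cells held 84.9% in WT and 98.3% in KO. Among cells thinned to 1000 UMIs it was found in 11.5% and 1.95% of the members and in 8.08% and 1.69% of endothelial cells, so its share of cells was near that in endothelial cells. *Tagln*, an actin-binding protein gene, was at 313 and 184 CPM (-0.77, but -0.02 in members thinned to 1000 UMIs), *Tnc* at 281 and 165 CPM (-0.77), *Timp1* at 573 and 350 CPM (-0.71) and *Serpine2* at 903 and 511 CPM (-0.82). *Igfbp3* was above 0 at 81.0 and 103 CPM (0.35). *Cthrc1*, *Postn* and *Lrrc15*, which mark the most activated fibroblasts, had 8, 67 and 0 UMIs in the WT members and 14, 9 and 0 in the KO members.

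This difference shrank when the rule was applied to cells thinned to equal depth. The ratios then used all UMIs of the cells so chosen. With every cell thinned to 1000 UMIs before the rule, the median of the activation list was -0.08 over 28 genes, with 1 at least 2-fold higher, 1 lower and 18 below 0. The median of all 8749 genes with enough UMIs was also -0.08, with 0.972% of them 2-fold higher, 1.77% lower and 61.0% below 0. The median of the collagens outside the rule was -0.09. *Acta2* then stood at -0.66, *Ltbp2* at -0.03, *Eln* at -0.08 and *Serpine2* at -0.02. When instead the members as selected were thinned to 1000 UMIs, *Acta2* was still at least 2-fold lower, whereas *Ltbp2* was not. Without *Dpt* and *Clec3b* in the adventitial step the activation median was -0.33 and the median of the same collagens -0.23. *Fn1* moved less, to -0.74 with the rule at 1000 UMIs and between -0.74 and -1.06 over all settings. At 1000 UMIs per cell *Fn1* was found in 77.8% of the WT and 57.2% of the KO members, against 5.51% and 3.38% of endothelial cells, and in adventitial fibroblasts it was at 2239 and 878 CPM. The rule at 1000 UMIs and the step without *Dpt* and *Clec3b* change which cells are members. With 1 library per genotype the settings cannot be ranked.

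**Figure D3:**
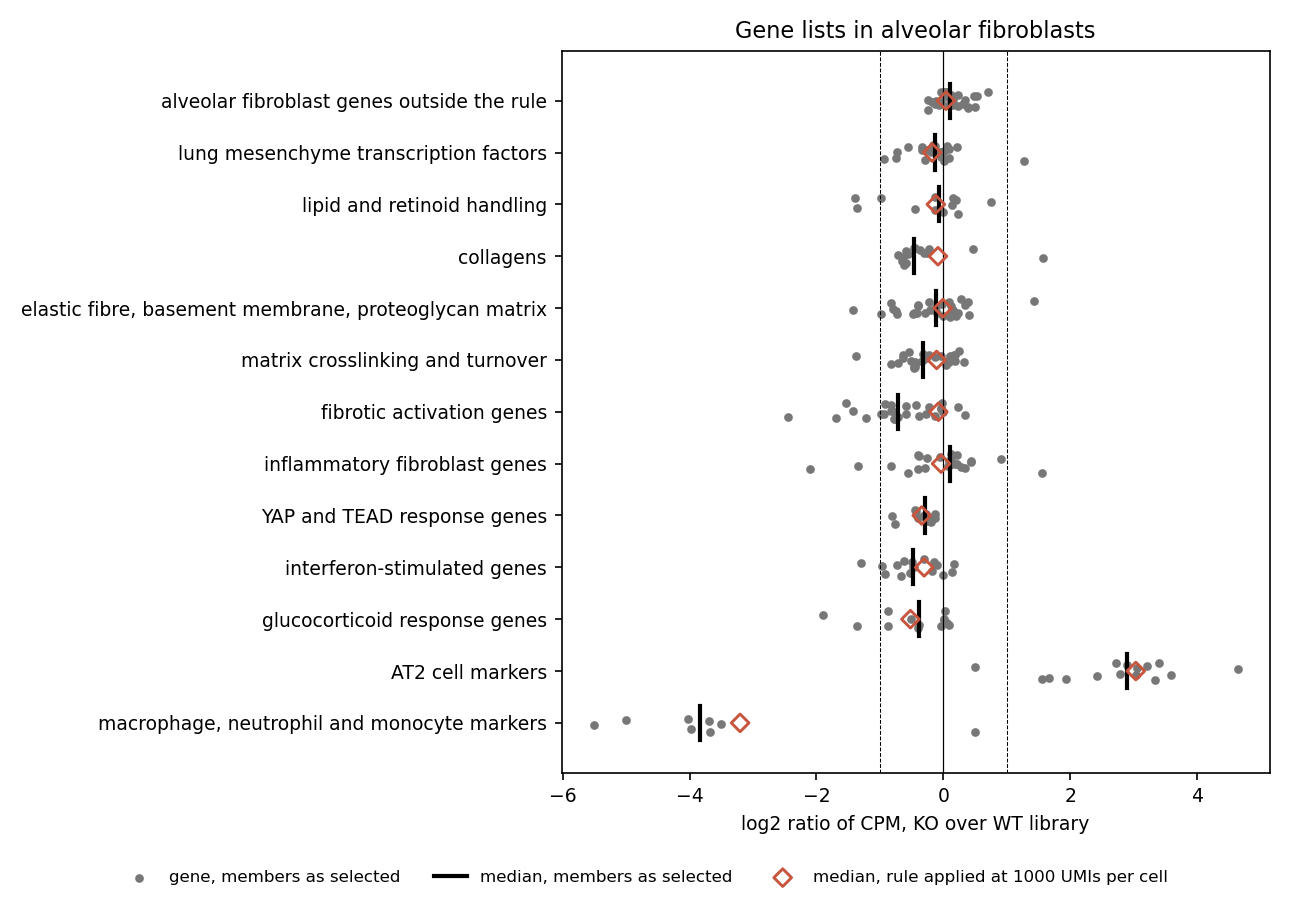
Log2 ratio of CPM, KO over WT library, for the genes of 13 lists in alveolar fibroblasts, with 1 grey point per gene, a black bar at the median and dashed lines at 2-fold. The red diamonds are the medians with the rule applied at 1000 UMIs per cell, which lie at -0.08 for collagens and fibrotic activation genes (the collagens of the rule included) but stay below 0 for YAP and TEAD, interferon and glucocorticoid genes and far from 0 for the AT2 and leukocyte markers.

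Genes that respond to glucocorticoids had a median below 0 under each setting, from -0.66 to -0.01. Of 13, *Sgk1* and *Zbtb16* were at least 2-fold lower, where 1.43% of all genes were, and none was higher, with a median of -0.38. It was -0.52 with the rule at 1000 UMIs and -0.66 without *Dpt* and *Clec3b*. *Zbtb16* (ENSMUSG00000066687), a zinc finger repressor gene that glucocorticoids induce, had 327 UMIs in WT (212 CPM) and 176 in KO (82.5 CPM), a log2 ratio of -1.36 (-1.63 to -1.09), and it lay between -1.09 and -1.58 over all settings. *Sgk1*, a kinase gene, was at 71.9 and 19.2 CPM (-1.90, -2.46 to -1.38, but -1.32 with the rule at 1000 UMIs). Both genes were also lower in KO endothelial cells, *Zbtb16* at 138 and 65.3 CPM and *Sgk1* at 194 and 125 CPM, and so was *Fkbp5*, an immunophilin gene, at 56.4 and 30.9 CPM in the members and 28.7 and 15.2 CPM in endothelial cells. *Zbtb16* was found at 1000 UMIs per cell in 15.4% of the WT and 7.39% of the KO members and in 12.4% and 7.89% of endothelial cells. *Hsd11b1*, the enzyme that makes active glucocorticoid inside the cell, was at 946 and 966 CPM (0.03), and *Dusp1*, which also responds to injury, at 388 and 379 CPM.

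Among lipid and retinoid genes, 2 of 12 were at least 2-fold lower, *Lpl* and *Zbtb16*, none was higher, and the median was -0.07. *Aldh1a1*, which makes retinoic acid, was at 1168 CPM in WT and 856 in KO (-0.45) and the retinal reductase gene *Dhrs3* at 45.4 and 76.4 CPM (0.75). *Apoe*, of the lipid carrier apolipoprotein E, was at 1901 and 2955 CPM (0.64, 0.57 to 0.70), against 635 and 333 CPM in endothelial cells. *Lpl*, lipoprotein lipase, was at 215 and 81.5 CPM (-1.40, -1.67 to -1.13, but -0.47 with the rule at 1000 UMIs), and in endothelial cells, where the enzyme acts, at 343 and 82.0 CPM. Of 25 transcription factors of lung mesenchyme, 1 was at least 2-fold higher and none lower, with a median of -0.13. The abundant *Nfib* was at 1181 and 1232 CPM, *Tcf4* at 798 and 727 CPM (-0.13) and *Zeb2* at 702 and 681 CPM. *Runx1*, found in activated fibroblasts, was at 183 and 95.1 CPM (-0.94), but at -0.30 with the rule at 1000 UMIs. *Foxp2* was at 16.9 and 40.8 CPM (1.27, but 0.53 with the rule at 1000 UMIs) and is held by AT2 cells at 229 and 248 CPM.

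Inflammatory fibroblast genes were mixed. Of the 24 of 41 with enough UMIs, 1 was at least 2-fold higher and 2 lower, and the median was 0.10. *Tnfaip6* (ENSMUSG00000053475), a hyaluronan-binding protein induced by inflammation, had 104 UMIs in WT (67.4 CPM) and 422 in KO (198 CPM), a log2 ratio of 1.55 (1.24 to 1.88). It was found at 1000 UMIs per cell in 2.98% of the WT and 8.56% of the KO members and in 0.24% and 0.28% of endothelial cells, and with the rule at 1000 UMIs the ratio was 0.97. The chemokine gene *Cxcl14* was at 775 and 884 CPM (0.19), the complement gene *C3* at 681 and 719 CPM (0.08) and the adhesion molecule gene *Icam1* at 56.4 and 106 CPM (0.92). The acute-phase gene *Saa3* was at 408 and 94.7 CPM (-2.11, -2.34 to -1.88), with 76.2% and 72.8% of the UMIs in 5 cells, and its ratio was -0.50 with the rule at 1000 UMIs and -0.14 without *Dpt* and *Clec3b*. *Cxcl10*, an interferon-induced chemokine, was at 42.8 and 16.9 CPM (-1.34) in 1.6% of the members of each library, and its ratio was above 0 under 4 other settings.

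Insulin-like growth factor binding proteins split, with 2 of 7 genes at least 2-fold higher, where 1.43% of all genes were, and a median of 0.35. *Igfbp6* (ENSMUSG00000023046), which binds IGF2, had 191 UMIs in WT (124 CPM) and 631 in KO (296 CPM), a log2 ratio of 1.26 (1.02 to 1.5), in 20.9% and 50.9% of the members. It was spread over many cells, and at 1000 UMIs per cell it was found in 11.5% of the WT and 22.2% of the KO members against 0.96% and 0.85% of endothelial cells. In adventitial fibroblasts, where it is high, *Igfbp6* was at 655 and 855 CPM, and with the rule at 1000 UMIs the ratio in the members was 0.78. *Igfbp5* was at 33.1 and 71.2 CPM (1.11), though below 0 (-0.31) with the rule at 1000 UMIs, *Igfbp4* at 227 and 125 CPM (-0.87, but -0.28 without *Dpt* and *Clec3b*) and the abundant *Igfbp7* at 1627 and 1804 CPM (0.15). The adventitial list had 10 genes outside the rule with enough UMIs, 2 of them higher and 3 lower by 2-fold, and a median of -0.07. It held *Dcn* and *Igfbp6* on the high side and *Sema3c*, *Ly6a* and *Ly6c1* on the low side at -2.73 to -3.02, and the last were at 960.9 to 1546.6 CPM for *Sema3c* and at 1067.5 to 1437.4 CPM for *Ly6c1* in endothelial cells.

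Of 17 interferon-stimulated genes 1 was at least 2-fold lower in KO and none higher, and 15 were below 0 where 58.0% of all genes were, with a median of -0.48, and the median was -0.30 with the rule at 1000 UMIs. *Ifi27l2a* was at 583 CPM in WT and 237 in KO (-1.30, -1.46 to -1.14, but -0.61 with the rule at 1000 UMIs), *Ly6e* at 191 and 97.5 CPM (-0.97) and the abundant *Ifitm3*, a barrier to virus entry, at 1758 and 1582 CPM (-0.15). The complement and antigen presentation list, with 18 genes, had 1 at least 2-fold higher and 1 lower and a median of -0.09. *B2m*, the light chain of class I molecules, was at 1199 and 740 CPM (-0.70), and the class II gene *H2-Eb1* at 104 and 42.2 CPM (-1.30, and -2.45 with the rule at 1000 UMIs), a gene that endothelial cells held at 239 and 90.7 CPM. The complement inhibitor gene *Serping1* was close, at 1317 and 1186 CPM. All 12 YAP and TEAD response genes were below 0, where 58.0% of all genes were, with a median of -0.29 and none 2-fold apart. *Amotl2*, which binds YAP, was at 79.1 and 45.0 CPM (-0.81) and the abundant *Ccn1*, listed in the files under an older symbol, at 478 and 438 CPM (-0.13).

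Of 31 immediate early and heat shock genes none was 2-fold apart, the median was 0.11 and 12 were below 0, where 58.0% of all genes were. *Btg2*, a p53 target and immediate early gene, was at 487 CPM in WT and 927 in KO (0.93, 0.81 to 1.05), *Atf3* at 60.9 and 117 CPM (0.94, but 0.37 with the rule at 1000 UMIs and 0.075 in members thinned to 1000 UMIs), *Junb* at 508 and 872 CPM (0.78) and *Fos* at 493 and 785 CPM (0.67). AT2 cells held *Btg2* at 257 and 239 CPM and *Junb* at 244 and 226 CPM, while in endothelial cells *Btg2* was at 221 and 300 CPM. *Klf4* and *Btg1* had ratios below 0, at 38.9 and 23.4 CPM (-0.73) and at 161 and 116 CPM (-0.48). Among 12 p53 genes *Cdkn1a*, an inhibitor of cell division, was at 129 and 80.6 CPM (-0.68, but -0.06 with up to 1 UMI of the excluded genes), and the median was -0.20. Its relative *Cdkn1c* was at 14.9 and 43.1 CPM (1.53, 0.86 to 2.26, and from 1.03 to 2.52 over all settings) and the cyclin gene *Ccnd2* at 139 and 76.8 CPM (-0.86), in a list of 8 cell cycle genes with a median of -0.53. Of 20 unfolded protein and integrated stress genes none was 2-fold apart and the median was 0.01, with the chaperone gene *Hspa5* at 663 and 566 CPM. Of 25 glutathione and NRF2 genes outside the rule 3 were at least 2-fold higher, *Cbr2*, *Gstp1* and *Gclc*, none was lower and the median was 0.12. AT2 cells held *Cbr2* at 1839 and 1882 CPM and *Gclc* at 948 and 722 CPM, and without the highest Scrublet scores the ratio of *Cbr2* in the members fell from 1.53 to 0.18. Without these scores 1 of the 25 genes was at least 2-fold higher. *Gpx3*, secreted glutathione peroxidase, was at 2270 and 1877 CPM (-0.27). *Malat1*, a nuclear RNA, was at 12395 and 17694 CPM (0.51) in the members and at 7156 and 10366 CPM in endothelial cells, the 6 nuclear-retained RNAs had a median of 0.25, and mitochondrial transcripts had a median of 0.20 over 13.

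**Figure D4:**
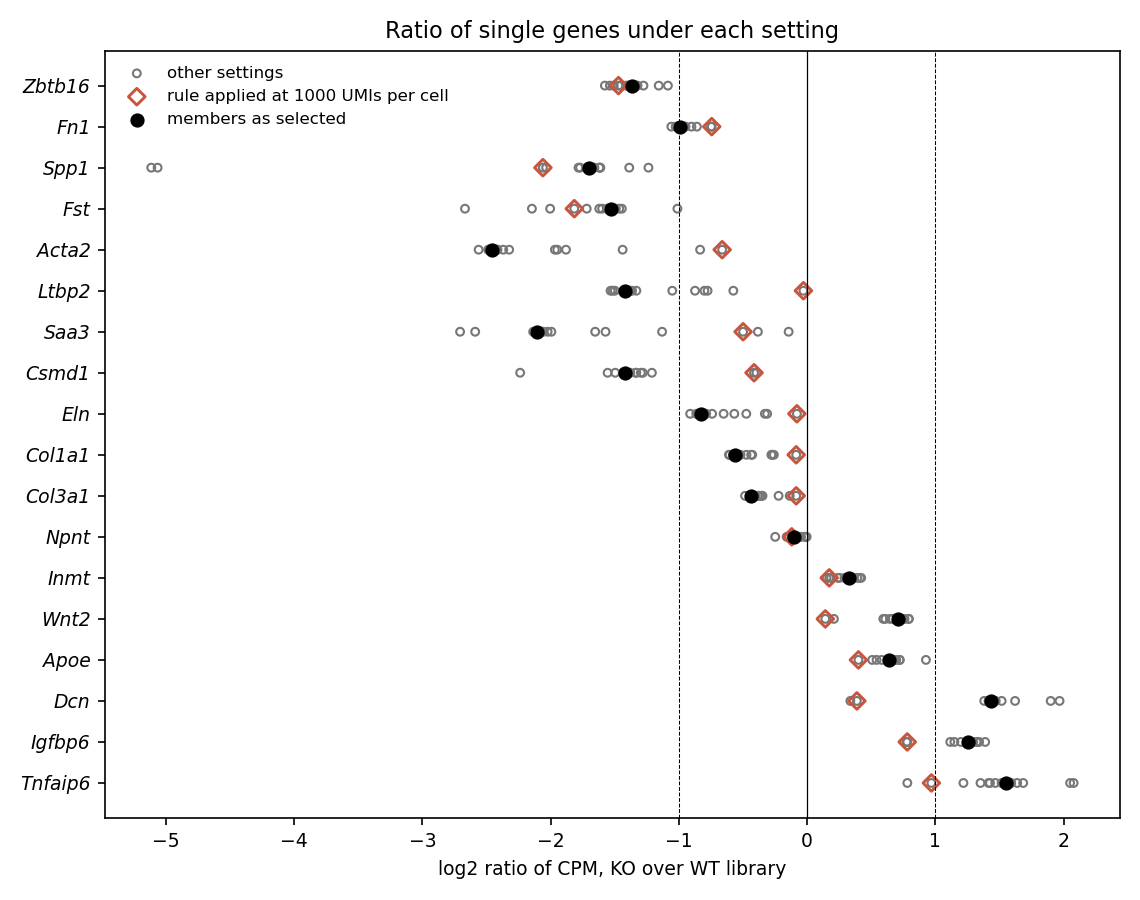
Log2 ratio of CPM, KO over WT library, of 18 genes in alveolar fibroblasts under each setting, with a black point for the members as selected, a red diamond for the rule applied at 1000 UMIs per cell and open circles for the other settings. *Zbtb16* and *Fn1* stay at or below -0.74 under each setting shown and *Igfbp6*, *Tnfaip6* and *Apoe* stay above 0. *Acta2*, *Ltbp2*, *Saa3*, *Eln*, *Wnt2* and *Dcn* come much nearer to 0 with the rule applied at 1000 UMIs per cell, a setting that changes the members. *Col1a1*, *Col3a1*, *Npnt* and *Inmt* are genes of the rule.

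The members were not all alike. Clustered on their own, with the 19 genes of the rule left out of the clustering, they fell into 5 states, and genes of other cells were among the leading genes of 4 of them. The leading genes define the states and are no result. State 1, with 181 WT (28.5%) and 266 KO members (47.8%), was led by *Scgb3a2*, *Slc7a10*, *Pdzd2*, *Mapt*, *Fgfr4*, *Colgalt2*, *Adrb3* and *Scgb1a1*, of which *Scgb3a2* and *Scgb1a1* are airway genes, and airway markers summed to 3006 and 13679 CPM in it, with *Scgb1a1* in 41.4% and 99.2% of its cells. State 3, with 96 WT (15.1%) and 171 KO members (30.8%), was led by *Spp1*, *Csmd1*, *Fst*, *Dcn*, *Pcdh7*, *Timp1*, *Cxcl1* and *Nr4a3*. State 2, with 300 WT (47.2%) and 83 KO members (14.9%), was led by hemoglobin and neutrophil genes, then by *Ptprb*, *Sema3c* and *Ly6a*. It had medians of 896 and 1035 UMIs. Few of its cells held the hemoglobin and neutrophil genes, with *Hbb-bs* in 7.33% of the WT and 6.02% of the KO cells and *S100a8* in 4.0% and 1.2%. *Ptprb*, *Sema3c* and *Ly6a* were in 12.3%, 13.3% and 15.7% of its WT cells and in 1.20%, 2.41% and 2.41% of its KO cells. Endothelial markers summed to 1396 and 238 CPM in it, the highest of the 5 states in both libraries. The alveolar list outside the rule summed to 20503 and 24567 CPM in state 2, at or above the level in state 3. State 4, with 54 WT and 7 KO members, was led by *Ctss*, *Tyrobp* and other macrophage genes, and state 5, with 5 WT and 29 KO members, by surfactant genes, its AT2 markers summing to 84190 and 169882 CPM. Since these leading genes differ between the libraries, the shares are not compared.

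**Figure D5:**
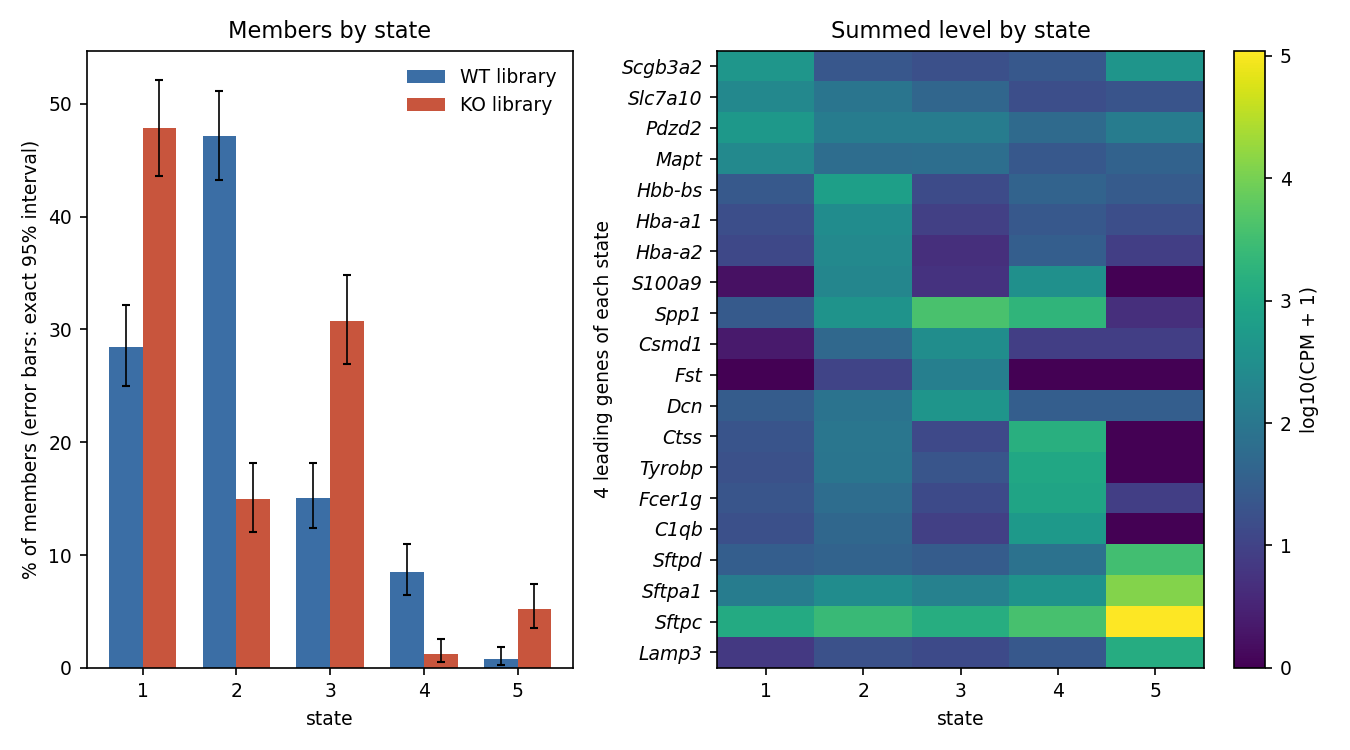
Left, the share of the members of each library in each of 5 states, in percent with exact 95% intervals of counting error, WT in blue and KO in red. Right, the summed level over both libraries of 4 leading genes of each state, as log10 of CPM plus 1; state 2 is led by hemoglobin and neutrophil genes, state 4 by macrophage genes and state 5 by surfactant genes.

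The summed level of the activation genes was highest in state 3, of which *Spp1*, *Fst* and *Timp1* are also leading genes, and that of the alveolar genes in state 1. The activation list summed to 25973 CPM in WT and 12019 in KO in state 3, and to 7404 and 5505 CPM in state 1. The alveolar list outside the rule summed to 38199 and 36109 CPM in state 1 and to 18871 and 24005 CPM in state 3. Within state 3, 9 of 22 activation genes were at least 2-fold lower in KO, with a median of -0.95, where 1.8% of all 2393 genes with enough UMIs were lower and their median was -0.05. Within state 1 none of 14 was, with a median of -0.08, beside 1.14% and a median of -0.12 over 2713 genes. *Acta2* was at 334 and 41.8 CPM in state 3 and at 15.5 and 15.9 CPM in state 1. *Fn1* was lower in KO in both, at 2367 and 1417 CPM in state 1 and 3350 and 1464 CPM in state 3, and so was *Zbtb16*, at 369 and 111 CPM and 162 and 68.0 CPM. *Igfbp6* was higher in KO in both, at 102 and 257 CPM in state 1 and 137 and 370 CPM in state 3. The glucocorticoid list had 4 of 9 genes at least 2-fold lower within state 1, with a median of -0.58, and 1 of 10 within state 3, with a median of -0.11.

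A finer clustering, into 8 states, set a small activated group apart. It held 43 WT members (6.76%, 4.94 to 9.0) and 25 KO members (4.5%, 2.93 to 6.57), with medians of 6281 and 6546 UMIs, and its activation genes summed to 37642 CPM in WT and 28154 in KO, where the other groups lay between 2615 and 11407 CPM. In this group *Spp1* was at 11954 and 9949 CPM, *Fst* at 451 and 392 CPM and *Timp1* at 2167 and 3286 CPM, while *Acta2* was at 552 and 144 CPM and *Saa3* at 1542 and 57.6 CPM. Without this group the activation median in the remaining members was -0.22, with 1 of 22 genes at least 2-fold lower beside 1.26% of all genes, and *Acta2* was at -1.44. The other part of state 3 was led by *Itgbl1*, *Nr4a2*, *Nr4a3*, *Txndc11*, *Fosb*, *Dcn* and *Tnfaip6* and held 51 WT (8.02%) and 147 KO members (26.4%), and its activation genes summed to 9036.9 and 7876.6 CPM. Another finer group, led by *Ptprb*, *Sema3c*, *Calcrl* and *Ly6a*, held 66 WT members (10.4%) and 1 KO member. The genes of the finer groups were chosen after their values were seen.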

How the data were processed

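Each library came as a matrix of raw, unnormalized UMI counts, which the authors deposited after running Cell Ranger on GRCm38 (mm10). The matrix headers name version 5.0.0, and the submitters' processing notes name version 3.1.0 and STAR. Counts were read in Python 3.11.15 with SciPy 1.17.1, and 0 columns were left unmapped. UMIs were summed over the cells of a kind and library and given per 1e+06 UMIs (CPM). Log2 ratios have the exact conditional 95% interval of 2 Poisson counts, and shares the exact binomial (Clopper-Pearson) one. Genes with at least 100 UMIs over both libraries were compared, and 2-fold was the mark for a call, with a floor of 3 counts. No test was run. The ratios and intervals were tested on simulated independent Poisson counts. Such counts leave out the gathering of UMIs in few cells, so the coverage of the intervals in these data was not tested. States came from Seurat 5.3.0 in R 4.3.3 (2000 variable genes, 10 principal components, resolution 0.4, or 0.8 for the finer one). Endothelial and AT2 cells were chosen by rules on their own markers. AT2 cells held at least 3 of *Slc34a2*, *Lamp3*, *Abca3* and *Napsa*. No doublets were removed: Scrublet, run in Scanpy 1.11.5, marked 0 cells in both libraries by its own threshold, so as an alternative the 10% of kept cells with the highest scores were left out. TMM factors came from edgeR 4.0.16.

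The members and the 37 gene lists were chosen with earlier results of these data known. Of 818 listed symbols 812 matched, 5 of them through an older symbol. The genes named were those of the rule and *Pclaf*, the 3 most abundant, 2 highest and 2 lowest of each list, the 10 highest and 10 lowest of all, the 15 furthest on either side of adventitial fibroblasts and the 8 leading genes of each state. Some genes that this rule picks are not reported here. Others, among them *Apoe*, *Timp1*, *Serpine2*, *Tnc*, *Fkbp5*, *Fgf7*, *Fgf10*, *Bmp5*, *Gclc*, *Ly6c1* and the members' own genes past 2-fold, were named after their values were seen. Genes that share reads with close paralogs, such as hemoglobin, *Lyz1* and *Lyz2*, *Saa3* and class I and II genes, are uncertain.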

Additional observations from a re-analysis of the deposited data

Results flagged for a closer look

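*Saa3*, a serum amyloid gene of the acute phase, was apart in opposite directions in the 2 kinds of fibroblasts, and it was the only one of 1816 genes compared in both kinds that was at least 2-fold lower in KO in one and at least 2-fold higher in the other. In alveolar fibroblasts it had 630 UMIs in WT (408 CPM) and 202 in KO (94.7 CPM), a log2 ratio of -2.11, in 38 and 25 cells. In adventitial fibroblasts it had 18 UMIs in WT (30.0 CPM) and 140 in KO (269 CPM), a log2 ratio of 3.16 (2.45 to 3.96), in 6 and 5 cells. The alveolar ratio was -0.50 with the rule applied at 1000 UMIs per cell, -0.14 without *Dpt* and *Clec3b* in the adventitial step and -0.38 without the small activated group of the finer clustering, so under these settings the gene was no longer 2-fold lower. The UMIs sat in few cells: 5 cells held 76.2% and 72.8% of those in alveolar and 94.4% and 100% of those in adventitial fibroblasts. The difference between the kinds was not tested, since each kind has 1 library per genotype.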

How the results depend on the processing

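Limits came first from depth: a WT member had fewer UMIs, and the rule asks for genes to be present and absent. No paired analysis was possible because each genotype is 1 library and no test was run. Settings chosen after seeing the data were states 1 and 3 alone, the adventitial step without *Dpt* and *Clec3b*, shared barcodes left out, own genes only (by the library where the gene is higher or by the mean), finer group 6 left out and the 10% highest Scrublet scores left out. Removal of called doublets was not run, since none was called. The median of all genes stayed between -0.10 and 0.03. Over the named genes, 2607 of 3367 values under alternatives lay within the counting interval of the value as selected, 750 outside it, and 10 changed sign. The causes of the changes below were not tested.

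The share of kept cells in WT and KO was 1.52% and 3.02% with at least 3 alveolar markers, 2.55% and 3.87% with up to 1 UMI of the excluded genes, 3.17% and 7.25% with the rule at 1000 UMIs, 0.918% and 2.79% for states 1 and 3, and 4.31% and 11.7% without *Dpt* and *Clec3b*. Of collagen-positive cells it was 25.2% and 21.3%, then 47.3% and 51.7% with the rule at 1000 UMIs, 15.2% and 19.7% for states 1 and 3, and 71.5% and 82.9% without *Dpt* and *Clec3b*. The counts of genes below have their share of the genes compared under that setting, beside 1.43% in each direction as selected. Genes at least 2-fold higher in KO numbered 51 (1.04%) with at least 3 markers, 119 (1.90%) with 1 UMI allowed and 21 (0.449%) in states 1 and 3. They numbered 43 (0.827%) without high Scrublet scores and 16 (1.01%) in thinned members. With a minimum of 50, 200 and no UMIs they numbered 160 (1.98%), 34 (1.06%) and 1027 (7.21%). Among own genes there were 5 by either measure (0.739% and 0.810%). Lower genes numbered 148 (2.37%) with 1 UMI allowed, 155 (1.77%) with the rule at 1000 UMIs and 36 (0.770%) in states 1 and 3. They numbered 132 (1.33%) without *Dpt* and *Clec3b*, 121 (2.18%) by the mean of cells and 20 (1.27%) in thinned members. With the same minimums they numbered 189 (2.34%), 28 (0.875%) and 1441 (10.1%). Among own genes there were 13 lower ones by either measure (1.92% and 2.11%).

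Of the lists, the activation median was -0.078 with the rule at 1000 UMIs, the p53 median 0.50 in thinned members, the cell cycle median -1.13 with no minimum and the sex-linked median 0.63 by the mean of cells. The other lists that moved were those of other cells. The AT2 median was 3.84 with 1 UMI allowed and 2.24 in thinned members. The airway median was 1.53 with 1 UMI allowed, 2.12 in states 1 and 3, 1.72 without *Dpt* and *Clec3b* and -1.50 without high Scrublet scores. The endothelial median was -3.10, -3.04, -2.49, -2.45 and -2.55 with 1 UMI allowed, the rule at 1000 UMIs, no *Dpt* and *Clec3b*, a minimum of 50 and none. The macrophage median was -3.20 with the rule at 1000 UMIs, 0.025 in states 1 and 3 (1 gene), -3.16 by the mean of cells and -0.21 in thinned members. The pericyte median was -1.10 with 1 UMI allowed and -1.47 with no minimum, the smooth muscle median -0.11 in thinned members and the mesothelial value 0.49 without *Dpt* and *Clec3b*. The erythroid median was -3.80 with at least 3 markers, -1.65 with 1 UMI allowed, -2.69 with the rule at 1000 UMIs, -3.17 without high Scrublet scores, -0.28 by the mean of cells and -1.77 with a minimum of 200.

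Genes that changed sign were *Cxcl10* (0.071 with at least 3 markers, 2.82 with the rule at 1000 UMIs, 0.021 without *Dpt* and *Clec3b* and 0.52 without finer group 6), *Igfbp5* (-0.31 and -0.056 with the rule at 1000 UMIs and without *Dpt* and *Clec3b*), *Scgb1a1* and *Scgb3a2* (-0.54 and -1.50 without high Scrublet scores) and *Scgb3a1* (4.62 and 2.47 with the rule at 1000 UMIs and in states 1 and 3). A resolution of 0.8 gave 8 states in place of 5.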

Other observations

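AT1 cell markers, which the text has not described, had a median log2 ratio of -0.53 over 7 genes in the members. *Hopx*, a homeodomain gene of AT1 cells, was at 82.3 CPM in WT and 55.3 in KO and *Clic5* at 54.4 and 32.3 CPM, whereas *Ager*, their receptor for glycation products, was at 61.6 and 185 CPM (log2 ratio 1.58, 1.26 to 1.92, but 0.52 without the highest Scrublet scores). The ratio of *Hopx* was -0.57, and from -1.22 to -0.47 over all settings, and that of *Clic5* was -0.75, and from -2.14 to -0.36. *Scgb3a1*, a secretoglobin of airway cells, was at 139 CPM in WT and 15.5 in KO, but nearly all of its WT level came from 1 cell: among the 5 WT members of state 5 it was at 7518 CPM with UMIs in 20% of them, and outside that state it was at 5.28 CPM in WT and 16.3 in KO. Its ratio was 4.62 with the rule applied at 1000 UMIs per cell and 2.47 in states 1 and 3.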
